A study of Mus musculus with 32 samples.

Results

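The genes described here are the well-expressed noncoding RNA genes of bone marrow-derived macrophages (BMDMs): genes for which the annotation lists noncoding transcripts and no coding transcript. They were chosen by their level. For each gene the row of the transcript that held most counts on average stood for it, and a gene became a member when it reached 5 CPM (its count per 1000000 counts of the library) on average over 32 libraries. Among 25067 genes, 4267 were noncoding throughout, 2156 of these were at 0 in every library, and 155 reached the limit. The annotation gave 42 of the members as transcribed pseudogenes and 10 as miRNA hairpins. The remaining 103, of any other annotated type, are counted here as long noncoding RNAs (lncRNAs). The median member had a mean of 12.4 CPM, 13 members had at least 100 CPM, and 60 had under 10 CPM. Since the level chose the members, the levels below are a description and carry no test. The last members inside the limit were Mir12188 (5.10 CPM), Gm16675 (5.02 CPM) and Tomm6os (5.01 CPM), and the first outside it were Gm3414 (4.999 CPM), Nlrp1c-ps (4.96 CPM) and Kantr (4.78 CPM).

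The libraries came from BMDMs of male mice, 6 to 12 weeks old. The cells had no treatment (0 h) or 1, 5 or 18 h of lipopolysaccharide (LPS, a bacterial cell wall component) at 100 ng/ml. BMDM-WT are cells of wild-type littermates, and BMDM-Nur77-KO are cells of mice that lack the nuclear receptor Nur77 (gene Nr4a1) in the whole body. The knockout was bred by crossing C57Bl6/J mice with a Cre driven by the CMV promoter to mice with a loxP-flanked Nr4a1 allele. Mice without the Cre were then selected. The paper names no strain for the mice with the loxP-flanked allele. Each of the 8 groups had 4 libraries, replicates seeded in 12-well plates. The number of animals behind them is not given in the sources used here, so p-values measure the spread between these libraries, which may be technical. Marrow cells of all groups had matured for 7 days in medium conditioned by L929 fibroblasts.

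Noncoding RNA genes act in several ways. Some lncRNAs stay in the nucleus and hold together nuclear bodies, such as Neat1 in paraspeckles, and others carry small nucleolar RNAs (snoRNAs) or miRNAs in their introns or exons and are hosts from which those are cut. In macrophages several lncRNAs are known to be switched on with the inflammatory genes beside them after LPS, and a further class consists of genes that are broken in the C57BL/6 reference strain and are therefore annotated as noncoding, although they are transcribed like their coding relatives. A poly(A)-selected library measures the spliced, polyadenylated host transcript and not the mature miRNA or snoRNA.

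Mature miRNAs are shown for 3 host members, because each is the best-known product of a host transcript, which is what was measured. Capitals mark the seed, bases 2 to 8, and the sequences are those of RefSeq on GRCm38.p6. No seed is shared between these 3.
miR-155-5p (Mir155hg, chr16:84714143-84714165, plus strand): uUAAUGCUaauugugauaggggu
miR-223-3p (F630028O10Rik, chrX:96242884-96242905, plus strand): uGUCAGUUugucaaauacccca
miR-22-3p (Mir22hg, chr11:75463772-75463793, plus strand): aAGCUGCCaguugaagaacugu

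Host genes of snoRNAs are known as a class whose transcripts tend to begin in a run of pyrimidines, as those of ribosomal protein genes do. The starts of the 3 called hosts with the longest runs are shown, with 20 bases before and 30 bases from the start that RefSeq annotates on GRCm38.p6 and the longest run of C and T in capitals.
2410006H16Rik (chr11:62602857-62602906, plus strand): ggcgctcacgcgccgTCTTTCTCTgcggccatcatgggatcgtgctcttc
Snhg1 (chr19:8723467-8723516, plus strand): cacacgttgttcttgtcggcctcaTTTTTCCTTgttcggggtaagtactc
Snhg5 (chr9:88522868-88522917, minus strand): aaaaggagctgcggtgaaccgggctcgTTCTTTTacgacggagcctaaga
The runs were 9, 9 and 7 bases long. Their first bases lay at -5, 4 and 7 from the annotated start, so only that of 2410006H16Rik spans it. In the windows of Gas5, Snhg3, Snhg14, Snhg15 and Zfas1, the other host members with an entry, the longest run was 3 to 6 bases over 6 entries. The run of 6 bases, in Gas5, began at -1 and spans the annotated start.

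Promoters are shown for the 2 raised members on the list of LPS-linked lncRNAs that share no exon bases with another gene and had both an entry in the RefSeq promoter table and a match to a searched motif. Each runs from 250 bases before to 50 bases after the annotated start on GRCm38.p6, and the match is in capitals.
AW112010 (chr19:11050517-11050816, minus strand): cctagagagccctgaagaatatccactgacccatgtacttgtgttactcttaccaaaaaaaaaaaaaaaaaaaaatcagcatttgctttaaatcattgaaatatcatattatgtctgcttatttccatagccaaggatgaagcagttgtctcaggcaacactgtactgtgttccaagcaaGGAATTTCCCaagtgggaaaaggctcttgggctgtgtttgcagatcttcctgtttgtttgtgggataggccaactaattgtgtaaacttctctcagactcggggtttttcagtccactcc
Ptgs2os2 (chr1:150164899-150165198, minus strand): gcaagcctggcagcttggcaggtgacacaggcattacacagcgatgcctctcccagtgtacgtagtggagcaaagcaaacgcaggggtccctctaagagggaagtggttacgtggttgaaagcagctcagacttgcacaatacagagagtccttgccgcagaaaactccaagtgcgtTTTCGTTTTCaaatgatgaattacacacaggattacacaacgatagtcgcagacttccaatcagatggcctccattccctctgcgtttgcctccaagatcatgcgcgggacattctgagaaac
The capitals in AW112010 match GGGANNTTCC, the letters searched for an NF-kB site, and those in Ptgs2os2 match GAAANNGAAA, searched for an interferon-stimulated response element, in both cases on the opposite strand of the promoter. A promoter entry existed for 78 of 155 members. GAAANNGAAA stood in 7 of these (8.97%) against 3.99% of all 27025 genes with an entry, GGGANNTTCC in 4 (5.13%) against 1.63%, TGANTCA (AP-1) in 5 (6.41%) against 8.97%, and AAAGGTCA, the element that a Nur77 monomer is known to bind, in 2 (2.56%) against 1.70%. Both strands were searched and the motifs may overlap. The 27025 genes were not limited to expressed ones. Split by direction, GAAANNGAAA stood in 3 of 30 members higher and 2 of 16 members lower at any LPS time. For GGGANNTTCC the counts were 3 of 30 and 1 of 16. A link between a motif and the LPS change was not tested. The members with AAAGGTCA were Rab10os and Scpep1os.

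Library totals ranged from 8742360.5 to 15780965 tags, where a tag is a read pair and each mate adds 0.5, and members took 0.522 to 0.902% of them. Levels from here on are CPM scaled by the trimmed mean of M-values (TMM), a scaling that sets most genes level between libraries. Nr4a1 itself was at 436 ± 60.1 CPM in BMDM-WT and 190.1 ± 39.8 CPM in BMDM-Nur77-KO at 1 h (mean ± SD, n = 4, as everywhere below), its peak in both, and was lower in the knockout at 0, 1 and 5 h (log2 fold changes -1.90, -1.20 and -1.55). At 18 h it was at 0.318 and 0.225 CPM and passed no test. The count covers the whole transcript. The paper does not say which part of Nr4a1 was deleted, and the source of the tags that remained in the knockout was not tested. The 7 macrophage markers summed to between 10845 and 18331 CPM in the 32 libraries, the 9 neutrophil markers to between 18.0 and 52.4 CPM, and the 7 fibroblast, 6 B cell and 6 mast cell markers to at most 5.31 CPM. The 6 dendritic cell markers summed to 1.37 to 27.2 CPM and the 7 T and NK cell markers to 0.315 to 38.3 CPM, and both were higher at 5 h than at 0 h in both genotypes, the latter through Lck. In bulk libraries fewer cells of a type and less RNA per cell cannot be told apart, and the part of these markers in the results was not tested.

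Members that overlap another gene need care. The exons of 69 members touched no exon of another gene, those of 66 members overlapped an exon on the opposite strand, and those of 20 members overlapped one on the same strand. Genes of small RNAs, such as miRNAs and snoRNAs, and genes annotated as unconfirmed were not counted as other genes. If tags were assigned without regard to strand, an overlapping member would receive tags from its neighbour in proportion to the shared exon bases. Of the 62 opposite-strand members whose neighbour was in the table, 48 had at most 2 times the tags predicted in this way, and the median of observed over predicted tags was 1.27. For the 18 same-strand members the figures were 13 and 1.37. The Pearson correlation of member and neighbour over the 32 libraries, which share the neighbour's own response, was over 0.9 for 36 of the 62 and 10 of the 18. The authors counted with the default settings of their counting tool and did not name the strand setting. For the overlapping members their own RNA and that of the neighbour therefore cannot be told apart from counts alone. Results below give the 69 members without overlap first, and overlapping members beside their neighbours. Of these 69, 35 are transcribed pseudogenes. Reads of related genes elsewhere that map to a pseudogene were not separated, and exon overlap does not screen for them.

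**Figure D1:**
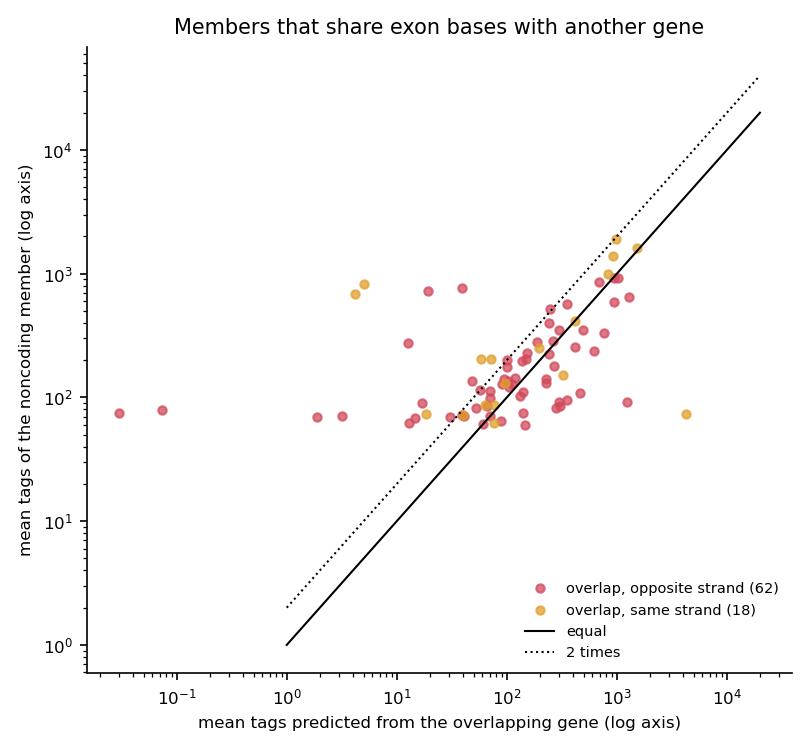
Mean tags of each overlapping member (vertical log axis) against the mean tags predicted from the overlapping gene's density over the shared exon bases (horizontal log axis), for 62 opposite-strand and 18 same-strand members. The solid line marks equal values and the dotted line 2 times the prediction, and 48 of 62 and 13 of 18 points lie at or under the dotted line.

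A further caution concerns libraries. BMDM-Nur77-KO 5 h replicate 1 was the highest or lowest of its 4 libraries for 128 of 155 members, BMDM-Nur77-KO 18 h replicate 4 for 124 and BMDM-WT 18 h replicate 3 for 122, while the count for the other libraries was 36 to 102. Atp6v0c-ps2, a pseudogene of a proton pump subunit, shows it: the BMDM-Nur77-KO libraries held 36.8, 110.4, 182 and 189 CPM at 5 h and 239.8, 251, 243 and 111 CPM at 18 h, with replicate 1 and replicate 4 far under the others. Rpl14-ps1, a ribosomal protein pseudogene, stood at 297, 123, 71.4 and 67.9 CPM at 5 h, with replicate 1 far over the others. Calls that rest on these libraries are given with and without them.

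The first question was how the members changed after LPS in BMDM-WT. A call required an edgeR adjusted p under 0.05, over all 11322 genes tested, and a log2 fold change over 1 in size. All 155 members were tested. At 1 h 15 members were higher and 4 lower than at 0 h, against 3.44% and 1.80% of all genes tested. At 5 h 43 were higher and 30 lower (15.7% and 18.0% of all genes), and at 18 h 42 were higher and 12 lower (13.2% and 14.3%). Membership itself leans to the higher side, because a gene that is silent at 0 h enters only if LPS raises it: 30 members were under 5 CPM in BMDM-WT at 0 h, and they made up 10 of the 15 higher at 1 h, 26 of the 43 at 5 h and 23 of the 42 at 18 h. All members called lower at these times were at 5 CPM or more at 0 h. Among the 69 members without exon overlap the calls were 9 higher and 3 lower after 1 h, 17 and 17 after 5 h, and 19 and 9 after 18 h. The members had a median log2 fold change of -0.03, 0.14 and 0.26 at 1, 5 and 18 h, and that of all genes tested was -0.03, -0.14 and -0.01. The balance depended on the scaling. With library totals in place of TMM the median of all genes shifted by -0.15, -0.63 and -0.37 on the log2 scale at 1, 5 and 18 h, and the calls became 14 higher and 7 lower, 31 and 50, and 36 and 29.

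**Figure D2:**
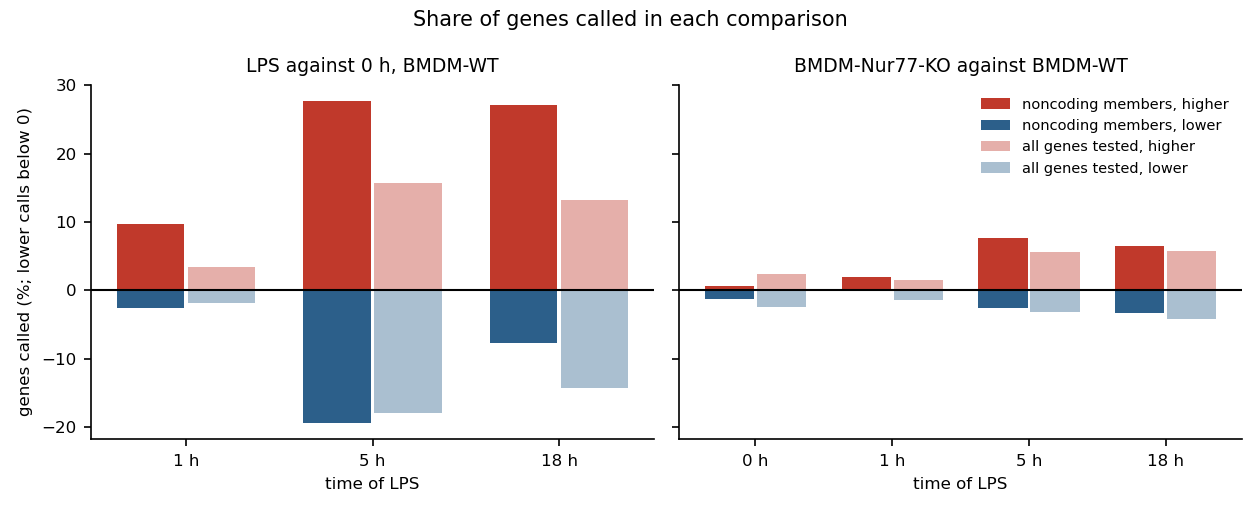
Percent of genes called higher (above 0) and lower (below 0) in each comparison, for the 155 noncoding members (dark bars) and all 11322 genes tested (pale bars), with red for higher and blue for lower. After LPS the members' higher bars stand above those of all genes at each time, and the genotype bars are small at 0 and 1 h for both.

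In all, 90 members were called at 1 or more LPS times and 65 at none. At 1, 5 and 18 h, 12.3, 47.1 and 34.8% of members were called, against 5.24, 33.7 and 27.5% of all genes tested. The share of all genes with a call at any LPS time, or with each course below, was not counted. Of the 90, 31 were higher at both 5 and 18 h, 12 were higher at 5 h and not called at 18 h, 9 were higher at 18 h only, 22 were lower at 5 h and not called at 18 h, and 8 were lower at both 5 and 18 h. Higher at all 3 times were Gm14023, Cxcl11, Mir155hg, Gm16712, H2-Q5, E230013L22Rik, Gm36117 and Ptgs2os2. The 1 h call of Gm16712 ended without BMDM-WT 1 h replicate 2, and that of Gm36117 without BMDM-WT 0 h replicate 3 or BMDM-WT 1 h replicate 1. Thap6 was the only member called in both directions.

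The highest levels after LPS belonged to AW112010 and Mx1. AW112010 (NR_102366; chr19:11047617-11050566, minus strand) is annotated as an lncRNA and is known to encode a protein from an unconventional reading frame in infected macrophages. Its libraries held 10.6, 6.00, 10.8 and 8.39 CPM in BMDM-WT at 0 h, 15.3, 10.8, 9.22 and 13.7 CPM at 1 h, 869.7, 842, 868 and 954 CPM at 5 h and 1048, 1161, 1169 and 1017 CPM at 18 h. The 0 h and 1 h groups overlapped, and every library at 5 and 18 h was far above them. The log2 fold change was 6.64 ± 0.21 (SE; edgeR adjusted p = 1.7e-22) at 5 h and 6.95 ± 0.21 (SE; edgeR adjusted p = 1.5e-22) at 18 h. Mx1 (NR_003520; chr16:97447037-97462906, minus strand) encodes an interferon-induced GTPase against influenza virus in other strains and carries a large deletion in C57BL/6. It stood at 27.9, 23.3, 24.9 and 17.2 CPM at 0 h, 19.7, 18.5, 16.6 and 16.5 CPM at 1 h, 2957, 2729.6, 2628 and 3632 CPM at 5 h and 1819, 1763, 1547 and 1925 CPM at 18 h. The 0 h and 1 h libraries overlapped, the 5 h libraries were highest, and the 18 h libraries lay under them, with log2 fold changes of 7.00 ± 0.17 (SE; edgeR adjusted p = 4.2e-25) and 6.24 ± 0.17 (SE; edgeR adjusted p = 4.8e-24) against 0 h. Members took 0.634 ± 0.0681% of the tags at 0 h and 0.824 ± 0.0658% at 18 h in BMDM-WT, and without Mx1 and AW112010 the shares were 0.630 ± 0.0677% and 0.550 ± 0.0514%.

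Cxcl11 (NR_038116; chr5:92359547-92363277, minus strand, inside the span of Art3 without sharing exon bases) is the gene of a chemokine for CXCR3 and has a frameshift in C57BL/6. None of the 4 BMDM-WT libraries at 0 h held a Cxcl11 tag. The libraries at 1 h held 0.496, 1.41, 0.535 and 0.416 CPM, those at 5 h 127, 121, 125 and 134 CPM and those at 18 h 72.1, 93.0, 83.2 and 67.7 CPM. Taking 3 tags per library as the floor for the untreated group, Cxcl11 was at least 614-fold higher at 5 h and at least 382-fold higher at 18 h.

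Mir155hg (NR_132106; chr16:84713023-84715245, plus strand), the host of miR-155, rose within 1 h. Untreated BMDM-WT held 0.228, 0, 0 and 0 CPM. After 1 h the libraries held 27.6, 34.6, 22.4 and 27.3 CPM, after 5 h 34.1, 27.1, 24.3 and 69.8 CPM and after 18 h 10.0, 7.60, 7.98 and 9.12 CPM. Against the same floor this was at least 135-fold, 188-fold and 42.0-fold higher. Replicate 4 at 5 h lay well above its group, and the libraries at 18 h all lay under those at 1 h. Ptgs2os2 (NR_110420; chr1:150159043-150164948, minus strand), known as lincRNA-Cox2, lies 50809 bases from Ptgs2, the gene of cyclooxygenase-2. It went from 0.0760, 0.103, 0 and 0.0724 CPM at 0 h to 3.12, 2.95, 2.54 and 1.98 CPM at 1 h, 11.4, 10.5, 10.8 and 14.6 CPM at 5 h and 3.47, 3.71, 5.38 and 2.93 CPM at 18 h, at least 12.8-fold, 57.2-fold and 18.7-fold over the floor. Ptgs2 held 1.67 ± 0.676, 474 ± 73.3, 983 ± 117 and 99.5 ± 20.9 CPM, so both peaked at 5 h, while at 1 h Ptgs2 was above its level at 18 h and Ptgs2os2 was on average below it.

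**Figure D3:**
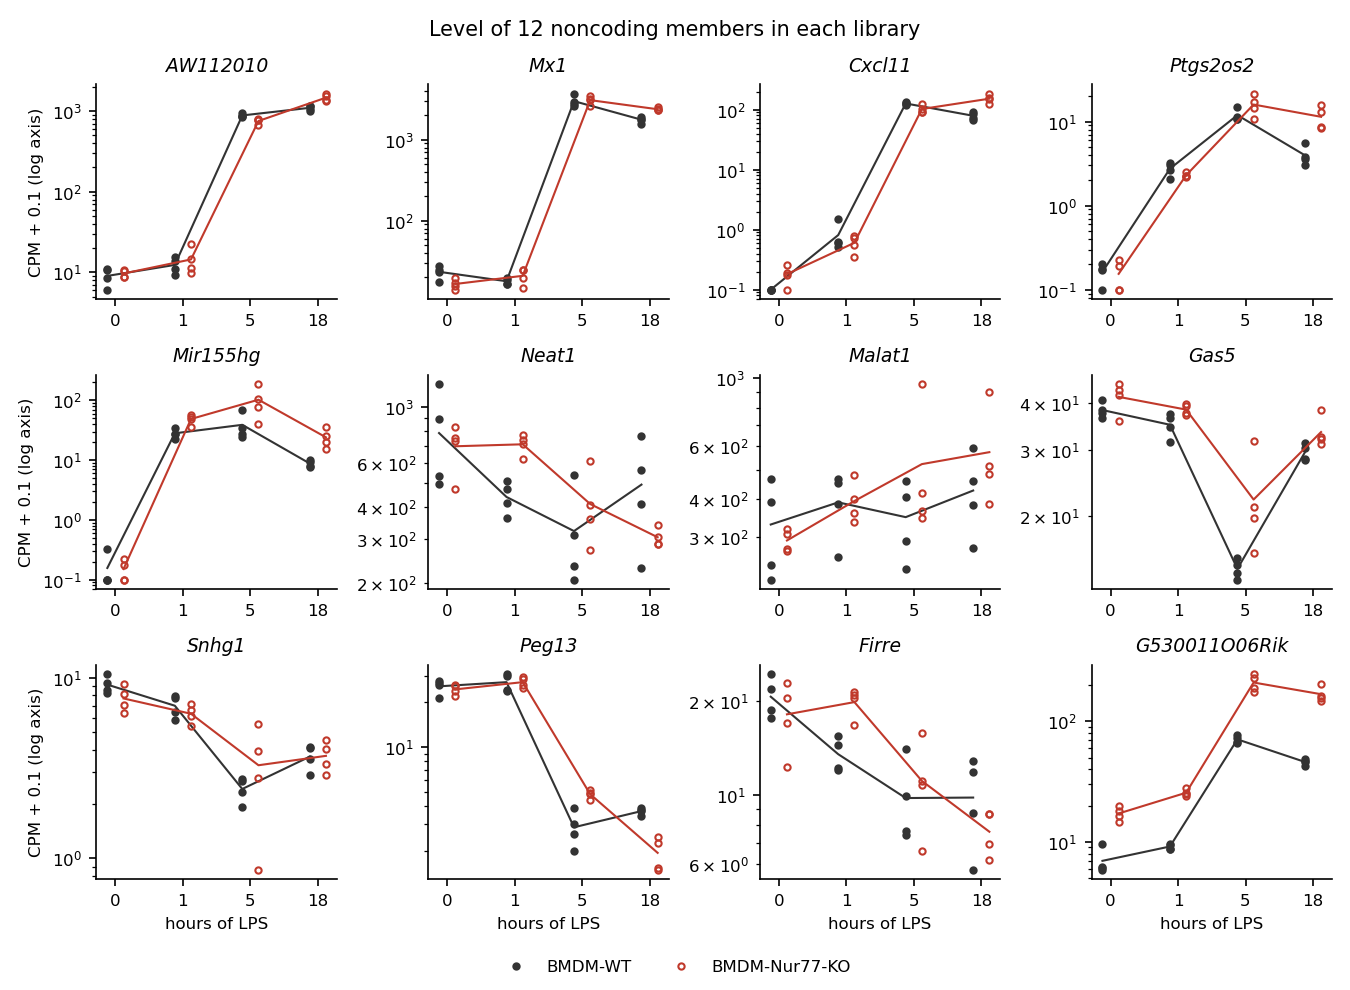
Level of 12 members in each library, as CPM + 0.1 on a log axis, against hours of LPS at even spacing; filled points are BMDM-WT, open points BMDM-Nur77-KO, and lines join group means (n = 4). AW112010, Mx1, Cxcl11, Ptgs2os2 and Mir155hg rise by 5 h, Gas5, Snhg1, Peg13 and Firre fall by 5 h, and G530011O06Rik lies higher in BMDM-Nur77-KO at each time.

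These genes belong to a list of lncRNAs linked to LPS in macrophages, which holds 18 names with 15 in the table, 10 members and 12 tested. Of the 12, 3 were higher and 1 lower after 1 h, 6 and 3 after 5 h, and 5 and 1 after 18 h. Of all genes tested 3.44% and 1.80%, 15.7% and 18.0%, and 13.2% and 14.3% were higher and lower at these times, which is the background for every list. Beside AW112010, Mir155hg and Ptgs2os2 the higher ones at 5 h were A630072M18Rik and, outside the members, Morrbid (0.208 ± 0.115 to 5.10 ± 0.527 CPM) and U90926 (0 to 1.62 ± 0.431 CPM). Neat1, Gas5 and Dnmt3aos were lower at 5 h, and Gm15441 was lower at 1 and 18 h.

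Of the nuclear lncRNAs, Neat1 and Firre were lower after LPS and Malat1 and Tug1 passed no call. The list of 9 nuclear architecture lncRNAs had 7 tested genes, of which 0 were called at 1 h, 3 were lower at 5 h, and 1 was higher and 2 lower at 18 h. Neat1 (NR_131212; chr19:5824708-5845478, minus strand), the scaffold of paraspeckles, varied widely between untreated libraries, at 1225, 891, 495 and 529 CPM. At 5 h the libraries held 311, 234, 206 and 533 CPM and at 18 h 559, 412, 228 and 763 CPM. The 0 h and 5 h groups overlapped, and the log2 fold change of -1.29 ± 0.30 (SE; edgeR adjusted p = 0.00041) at 5 h became -0.99 and lost its call without BMDM-WT 0 h replicate 1. Malat1 (NR_002847; chr19:5795690-5802672, minus strand), a lncRNA of nuclear speckles that lies beside Neat1, held 216 to 466 CPM at 0 h and 275 to 588 CPM at 18 h, and its log2 fold change at 5 h was 0.08 ± 0.30 (SE; edgeR adjusted p = 0.825). Firre (NR_015505; chrX:50563125-50635066, minus strand), which brings distant chromosome regions together, went from 24.2, 21.7, 17.5 and 18.5 CPM at 0 h to 9.78, 7.33, 7.54 and 13.9 CPM at 5 h and 11.7, 8.65, 5.64 and 12.7 CPM at 18 h, with no overlap between untreated and treated groups. Its log2 fold changes of -1.09 ± 0.23 (SE; edgeR adjusted p = 0.00012) and -1.08 ± 0.23 (SE; edgeR adjusted p = 0.0001) were near the limit, and leaving out BMDM-WT 5 h replicate 2 or 3, or for 18 h BMDM-WT 0 h replicate 1 or BMDM-WT 18 h replicate 3, brought them to between -0.89 and -0.98. Norad (NR_024329; chr2:156388065-156392979, minus strand), a lncRNA that binds Pumilio proteins, dipped from 178 ± 24.0 CPM to 105 ± 5.88 CPM at 5 h and stood at 225 ± 19.5 CPM at 18 h. The log2 fold change at 5 h, -0.77 ± 0.09 (SE; edgeR adjusted p = 1.7e-08), stayed inside the limit. Tug1 held 61.5 ± 13.7 CPM at 0 h and 91.2 ± 22.7 CPM at 18 h. Of 12 paraspeckle proteins 1 was higher (Nono) and 0 were lower at 5 h, and 2 (Sfpq and Pspc1) were lower at 18 h.

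Hosts of snoRNAs moved mostly one way. The list holds 23 names, of which 20 were tested and 9 were members; 1 of the 9, Gm12191, is given by the annotation as a pseudogene and may not belong there. Of the 20, 2, 11 and 6 were lower at 1, 5 and 18 h, and 0, 0 and 1 were higher. The median log2 fold change was -0.18, -1.54 and -0.67, against -0.03, -0.14 and -0.01 for all genes. Gas5 (NR_153812; chr1:161034422-161038539, plus strand), which hosts a series of snoRNAs and is known to be degraded once ribosomes engage it, held 40.6, 36.4, 38.2 and 37.4 CPM at 0 h, 37.1, 36.4, 34.4 and 31.4 CPM at 1 h, 13.4, 14.7, 14.0 and 15.3 CPM at 5 h and 31.1, 30.2, 28.1 and 28.1 CPM at 18 h. The 5 h libraries lay under all others, and the 18 h libraries lay between them and the untreated ones. The log2 fold change was -1.41 ± 0.13 (SE; edgeR adjusted p = 2.4e-11) at 5 h and -0.38 at 18 h.

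2410006H16Rik (chr11:62602877-62604807, plus strand) fell most among the host members, from 8.52, 7.24, 10.4 and 9.48 CPM at 0 h to 0.227, 1.22, 1.88 and 1.42 CPM at 5 h and back to 6.11, 6.46, 3.99 and 6.54 CPM at 18 h. The log2 fold change at 5 h was -2.89 ± 0.28 (SE; edgeR adjusted p = 1.5e-10). Snhg1 (chr19:8723475-8726443, plus strand) held 10.3, 8.17, 8.45 and 9.26 CPM at 0 h, 1.82, 2.57, 2.66 and 2.24 CPM at 5 h and 4.02, 3.99, 2.78 and 3.44 CPM at 18 h, with log2 fold changes of -1.96 ± 0.27 (SE; edgeR adjusted p = 1.4e-07) and -1.35 ± 0.24 (SE; edgeR adjusted p = 1.3e-05). Snhg5 (chr9:88521052-88522890, minus strand) held 9.50, 8.38, 7.24 and 7.45 CPM, 3.64, 2.69, 2.33 and 2.60 CPM and 4.38, 3.42, 3.30 and 4.48 CPM at the same times. Its log2 fold change was -1.53 ± 0.21 (SE; edgeR adjusted p = 1.1e-07) at 5 h and -1.06 ± 0.19 (SE; edgeR adjusted p = 1.1e-05) at 18 h, where leaving out BMDM-WT 0 h replicate 1 or BMDM-WT 18 h replicate 3 ended the call. These 3 hosts, whose starts are shown above, were lower at 5 h in every library than in any untreated library.

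The other hosts among the members went separate ways. Snhg15 (chr11:6525591-6528760, minus strand) passed no call, with 5.88 ± 0.422 CPM at 0 h, 8.52 ± 1.46 CPM at 1 h and 3.86 ± 0.667 CPM at 18 h. Snhg3 held 7.08 ± 1.27 CPM and 4.59 ± 0.666 CPM at 0 and 5 h, a log2 fold change of -0.63. Snhg14, the host of the imprinted snoRNA clusters of the Prader-Willi region, held 6.66 ± 0.800 and 7.79 ± 0.680 CPM. Zfas1 (NR_138563; chr2:167062934-167065862, plus strand) went the other way and rose to 31.6, 26.6, 29.7 and 34.8 CPM at 18 h from 10.9, 11.1, 13.4 and 10.6 CPM at 0 h, a log2 fold change of 1.41 ± 0.13 (SE; edgeR adjusted p = 1.1e-10). It shares 82 of 738 exon bases with Znfx1 on the opposite strand, which rose from 203 ± 12.2 to 1332 ± 57.0 CPM, and its tags were 1.98 times those predicted from Znfx1. Of the 12 core proteins of snoRNA particles, 0 were called at 1 h, 3 were lower at 5 h (Nop56, Dkc1 and Nolc1) and 8 at 18 h, when Fbl, Nop58, Nop10, Nhp2 and Gar1 joined them. Of 15 nuclear exosome factors 3 were lower at 5 h and 5 at 18 h, against 18.0% and 14.3% of all genes, so that the first is near the background. Of 14 factors of nonsense-mediated decay 1 was higher and 2 were lower at 5 h and 1 was higher at 18 h.

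Among the miRNA hosts each member had its own course. F630028O10Rik (NR_030718; chrX:96239926-96243636, plus strand), the host of miR-223, a miRNA of the myeloid lineage, held 32.8, 36.6, 19.0 and 16.8 CPM at 0 h and 12.9, 17.1, 11.3 and 12.7 CPM at 1 h. At 5 h 3.07, 2.32, 1.11 and 3.89 CPM remained and at 18 h 4.56, 4.37, 4.86 and 3.18 CPM. The log2 fold changes were -3.35 ± 0.36 (SE; edgeR adjusted p = 1.1e-09) and -2.64 ± 0.32 (SE; edgeR adjusted p = 1.8e-08), and neither group overlapped the untreated one. Dleu2 (NR_028264; chr14:61603034-61682314, minus strand), the host of miR-15a and miR-16, stood at 4.26 ± 0.497 CPM at 0 h, 3.03 ± 0.843 CPM at 5 h and 16.8, 14.4, 17.4 and 14.9 CPM at 18 h, a rise of 1.89 ± 0.19 (SE; edgeR adjusted p = 4.8e-10) seen only at the last time. Mir22hg (NR_030711; chr11:75461539-75466676, plus strand), the host of miR-22, went from 55.0 ± 8.67 CPM to 91.7 ± 5.64 CPM at 1 h and 38.7 ± 9.38 CPM at 18 h. Its log2 fold changes of 0.74 and -0.51 stayed inside the limit. It shares 206 of 1752 exon bases with Tlcd2 but held 165 times the tags that Tlcd2 would give.

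Of the 10 hairpin members, 0, 6 and 4 were higher at 1, 5 and 18 h, and 0 were lower. Of all genes tested 3.44, 15.7 and 13.2% were higher and 1.80, 18.0 and 14.3% lower. The choice of members by level, which leans to the higher side, applies to hairpins too. A hairpin is far shorter than a poly(A) library insert, and 9 of the 10 shared exon bases with another gene, 7 of them over their whole length. Mir147 (chr2:122640803-122640881, plus strand) lies wholly in an exon of AA467197, a gene raised by LPS. It held 33.4, 38.8, 37.9 and 34.7 CPM at 5 h and 16.6, 19.2, 13.5 and 15.8 CPM at 18 h against at most 0.151 CPM in any library at 0 h, at least 175-fold and 78.9-fold over the floor. AA467197 held 0.740 ± 0.342, 243 ± 11.3 and 105 ± 9.68 CPM, the hairpin's tags were 1.36 times those predicted from it, and the correlation over 32 libraries was 0.989. The hairpin and its host transcript cannot be told apart here. Mir12188, the last member inside the limit, lies in an exon of Clcn7 and rose from 2.63 ± 0.389 to 10.7 ± 0.528 CPM. Of 13 proteins of the miRNA machinery 1 was higher and 3 were lower at 5 h, near the 15.7% and 18.0% of all genes, and 1 each at 18 h.

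Some members without exon overlap fell to a small part of their level. Peg13 (NR_002864; chr15:72805600-72810324, minus strand) is an imprinted lncRNA expressed from the paternal allele inside an intron of Trappc9. It held 25.9, 21.3, 27.7 and 26.9 CPM at 0 h, 30.7, 30.1, 24.2 and 23.7 CPM at 1 h, 2.50, 2.93, 3.77 and 1.89 CPM at 5 h and 3.65, 3.80, 3.30 and 3.62 CPM at 18 h. The 1 h libraries overlapped the untreated ones, and the later ones lay far below, with log2 fold changes of -3.19 ± 0.15 (SE; edgeR adjusted p = 5.7e-18) and -2.82 ± 0.14 (SE; edgeR adjusted p = 2.4e-17). Trappc9 around it stayed between 22.6 and 29.8 CPM in all 8 groups and passed no call. 2610507I01Rik (chr11:59199836-59202385, minus strand) dipped from 14.1, 10.2, 10.6 and 11.6 CPM at 0 h to 0.910, 0.733, 0.998 and 0.708 CPM at 5 h and was back at 13.3, 10.5, 10.9 and 11.2 CPM at 18 h. The log2 fold change at 5 h was -3.77 ± 0.19 (SE; edgeR adjusted p = 3.5e-17), the lowest among the members at that time. AU022793 (chr15:39962649-39967024, plus strand) went from 13.1 ± 3.17 to 1.03 ± 0.458 CPM at 5 h (log2 fold change -3.64 ± 0.29 SE, edgeR adjusted p = 1.9e-12) and 7.38 ± 1.97 CPM at 18 h. The pseudogene Pisd-ps1 went from 13.3 ± 2.62 to 2.04 ± 0.497 and 2.75 ± 0.963 CPM, and Pisd-ps3 from 108 ± 17.4 to 26.7 ± 7.41 and back to 94.0 ± 25.3 CPM, so that the pair parted at 18 h, with log2 fold changes of -2.26 and -0.21. The difference between these was not tested.

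A few members moved within the first hour. Thap6 (NR_028429; chr5:91963333-91972066, plus strand), annotated as a transcribed pseudogene, went from 19.0, 16.3, 14.3 and 16.5 CPM at 0 h to 72.2, 75.0, 56.3 and 61.2 CPM at 1 h, then to 6.94, 9.29, 7.76 and 7.79 CPM at 5 h and 3.65, 3.52, 5.21 and 4.30 CPM at 18 h. The log2 fold changes of 2.00 ± 0.15 (SE; edgeR adjusted p = 1.8e-12) at 1 h and -1.98 ± 0.18 (SE; edgeR adjusted p = 2.2e-11) at 18 h kept their calls without each library. That of -1.06 at 5 h was at the limit, lost its call without BMDM-WT 0 h replicate 1, became -0.97 with DESeq2 and with its size factors, and -0.98 in a fit of the compared libraries alone. 4632415L05Rik (chr3:19894898-19898984, plus strand) went the opposite way, from 8.52, 10.7, 9.65 and 8.25 CPM to 2.41, 2.18, 1.80 and 2.60 CPM at 1 h (log2 fold change -2.06 ± 0.19 SE, edgeR adjusted p = 5.2e-10) and 16.6 ± 2.54 CPM at 5 h. 1110002J07Rik rose from 4.86 ± 0.401 to 11.3 ± 1.27 CPM at 1 h and 17.6 ± 2.40 CPM at 18 h (log2 fold change 1.85 ± 0.12 SE, edgeR adjusted p = 2.5e-14). Tmem181b-ps fell from 9.53 ± 2.70 to 4.30 ± 0.520 CPM, a call that ended without BMDM-WT 0 h replicate 1.

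**Figure D4:**
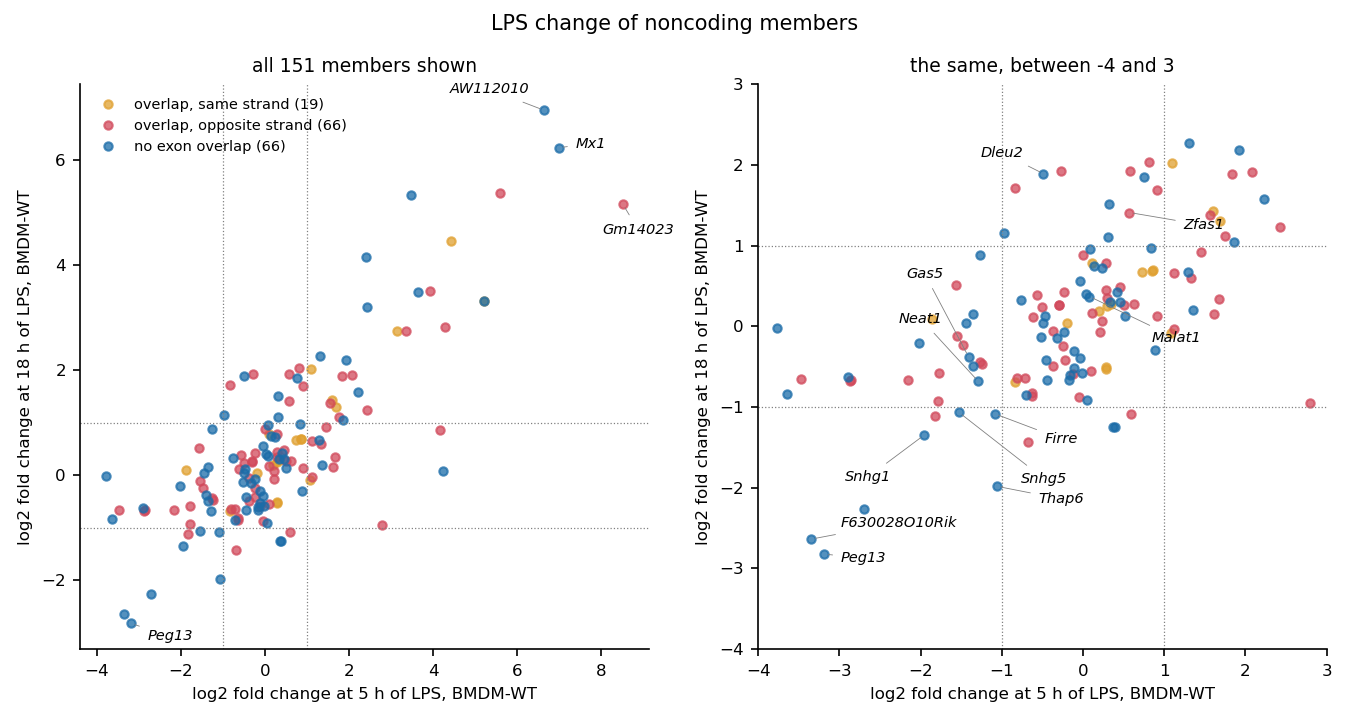
Log2 fold change of 151 members in BMDM-WT at 5 h (horizontal) and 18 h (vertical) of LPS against 0 h; the right panel enlarges the part between -4 and 3, dotted lines mark 1 and -1, and colours mark exon overlap (none, opposite strand or same strand). Members at or under the floor of 3 tags per library at 0 h (Cxcl11, Ptgs2os2, Mir155hg and Mir147) are left out, AW112010 and Mx1 lie at the upper right of the left panel, and Peg13 and F630028O10Rik at the lower left of both.

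Further members without exon overlap rose from low levels. AI504432 (chr3:107039504-107054347, plus strand) was transient, at 2.13, 3.62, 1.81 and 1.74 CPM at 0 h, 7.09, 8.85, 6.68 and 12.3 CPM at 1 h and 40.8, 40.0, 41.9 and 59.2 CPM at 5 h, and again at 2.37, 1.90, 3.82 and 2.07 CPM at 18 h. Its log2 fold change was 4.24 ± 0.30 (SE; edgeR adjusted p = 7.9e-14) at 5 h and 0.09 at 18 h. 4933412E12Rik held 2.97, 2.07, 2.49 and 2.32 CPM at 0 h, 12.4, 12.7, 10.9 and 16.9 CPM at 5 h and 22.2, 23.2, 20.9 and 23.6 CPM at 18 h, so its highest libraries were the latest. The pseudogene Bambi-ps1 went from 3.52 ± 0.315 to 43.9 ± 3.20 CPM at 5 h and 39.7 ± 2.79 CPM at 18 h. H2-Q5 and H2-K2, class I histocompatibility genes annotated here as pseudogenes, held 1.35 ± 0.328 and 6.89 ± 0.777 CPM at 0 h, 6.51 ± 2.28 and 17.3 ± 2.87 CPM at 1 h and 24.6 ± 5.35 and 19.7 ± 3.96 CPM at 18 h. H2-K2 was back at 8.58 ± 1.64 CPM at 5 h, where H2-Q5 held 7.25 ± 0.376 CPM. Reads of the related class I genes that map to these 2 were not separated.

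Pseudogenes stood high once length was taken into account. Per kilobase of transcript the highest members over all libraries were AW112010 (689.8 RPKM), Gm15772 (652 RPKM), Mx1 (477 RPKM), Atp6v0c-ps2 (395 RPKM) and Gm12191 (366 RPKM). Gm15772 held 285 to 355 CPM at 0 h, 323 to 329 CPM at 5 h and 201 to 230.2 CPM at 18 h, and Gm12191 127 to 170.2, 121 to 143 and 81.9 to 107 CPM. The log2 fold changes at 18 h, -0.58 and -0.66, were inside the limit. Gm5643 and Gm10052 had counts that correlated at 0.999 over 32 libraries and were both called lower at 18 h (log2 fold changes -1.24 and -1.25). The authors filtered alignments on mapping quality before counting, and how reads that fit both genes were treated was not tested. Gm18853 and Gm18852 had the same count in every library and stand for 1 measurement, and Mir7676-1 and Mir7676-2 differed by at most 4 tags. Gm5424 (NR_002687; chr10:62071123-62072362, plus strand), a pseudogene of argininosuccinate synthase, rose late, from 2.13, 2.85, 3.09 and 2.97 CPM at 0 h to 30.7, 27.7, 34.6 and 30.1 CPM at 5 h and 106, 119, 105 and 116 CPM at 18 h, with log2 fold changes of 3.47 ± 0.17 (SE; edgeR adjusted p = 9e-18) and 5.33 ± 0.17 (SE; edgeR adjusted p = 3.1e-22). Reads of the parent gene that map to it were not separated. Gm16675, a lncRNA at the limit of the rule, rose from 2.41 ± 0.452 to 11.5 ± 0.934 CPM (log2 fold change 2.27 ± 0.18 SE, edgeR adjusted p = 3.3e-12).

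Overlapping members mostly followed their neighbours. Gm14023 (chr2:129297370-129307826, plus strand) shares 222 of 1781 exon bases with Il1a, the gene of interleukin-1 alpha, on the opposite strand. It went from 0.472 ± 0.105 CPM at 0 h to 90.9 ± 11.0, 182 ± 13.7 and 17.7 ± 1.77 CPM, and Il1a from 2.10 ± 0.560 to 780.1 ± 84.4, 1529.9 ± 124 and 141 ± 13.8 CPM. Observed over predicted tags were 0.964 and the correlation 0.996. 4933416M07Rik, inside Rab11fip1, went from 1.45 ± 0.285 to 25.9 ± 3.12 CPM at 5 h beside 14.1 ± 1.71 to 279 ± 22.9 CPM for Rab11fip1 (ratio 1.60). Gm15441 fell from 156 ± 20.6 to 24.1 ± 1.01 CPM at 1 h and stood at 97.4 ± 7.89 CPM at 5 h, as Txnip, which restrains glucose uptake, went from 789.9 ± 81.6 to 119 ± 6.05 and 469.6 ± 37.2 CPM (ratio 0.905). C030034L19Rik fell from 7.20 ± 0.991 to 0.636 ± 0.271 CPM beside Zfp704, 39.4 ± 2.58 to 4.13 ± 0.556 CPM (ratio 0.990). On the same strand, Gm28043 (92.6 ± 6.62 to 297 ± 12.1 CPM) shares 3390 exon bases with Cmtr1 (84.0 ± 6.06 to 301 ± 9.83 CPM), and Atrip-trex1 (32.8 ± 2.83 to 289 ± 14.4 CPM) shares 1144 with Trex1 (24.4 ± 2.53 to 281 ± 15.5 CPM). Both pairs correlated at over 0.99.

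The course of A630072M18Rik was less like that of its neighbour. A630072M18Rik (chr5:20950989-20956398, plus strand) has 5142 of its 5410 exon bases opposite to Rsbn1l. It rose from 6.84, 7.24, 5.35 and 6.01 CPM to 16.9, 18.0, 19.5 and 18.9 CPM at 1 h and 43.7, 38.3, 43.7 and 52.6 CPM at 5 h and then fell to 3.38, 3.61, 2.08 and 4.13 CPM at 18 h. Rsbn1l held 40.1 ± 7.53, 37.8 ± 1.50, 85.8 ± 6.40 and 43.5 ± 6.45 CPM, so that at 1 h the member was called higher and its neighbour was not, and the correlation over 32 libraries was 0.530. Dnmt3aos fell from 12.3 ± 0.875 to 2.73 ± 0.915 CPM at 5 h (log2 fold change -2.16 ± 0.17 SE, edgeR adjusted p = 9.7e-13). Its neighbour Dnmt3a fell too, with a log2 fold change of -1.48, the correlation was 0.960, and Dnmt3aos held 2.04 times the predicted tags. E230013L22Rik rose from 2.66 ± 0.283 to 15.1 ± 2.87 CPM at 1 h. Rab20, on the opposite strand, rose from 14.4 ± 1.18 to 54.3 ± 3.72 CPM, with observed over predicted tags of 0.780 and a correlation of 0.900.

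The second question was whether members differed between BMDM-Nur77-KO and BMDM-WT at the same time. The limit was 0.58 on the log2 scale. At 0 h 1 member was higher and 2 were lower in the knockout (2.38% and 2.46% of all genes tested), at 1 h 3 and 0 (1.51% and 1.38%), at 5 h 12 and 4 (5.59% and 3.13%), and at 18 h 10 and 5 (5.73% and 4.11%). At 1 h 25 members had an unadjusted p under 0.05 in edgeR, and DESeq2 also called 0 lower. In all 29 members were called at 1 or more times, 13 of them without exon overlap. The share of all genes called at any time was not counted. At 0, 1, 5 and 18 h, 1.94, 1.94, 10.3 and 9.68% of members were called, against 4.83, 2.89, 8.72 and 9.84% of all genes tested. Without the 3 libraries that stand apart the counts at 5 h became 8 higher and 2 lower, and at 18 h 12 and 8. At 0 and 1 h the 9 neutrophil markers summed to 27.1 to 35.3 and 43.5 to 52.4 CPM in the knockout, against 18.0 to 30.2 and 28.2 to 37.9 CPM in BMDM-WT, apart only at 1 h. Of the 5 tested, S100a8 and Ltf were called higher at 0 h and Ngp and Ltf at 1 h, and the part of these markers in the member calls was not tested. Of the 16 calls at 5 h 6 held without each library in turn and 3 under every other planned setting, and of the 15 at 18 h 14 did.

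**Figure D5:**
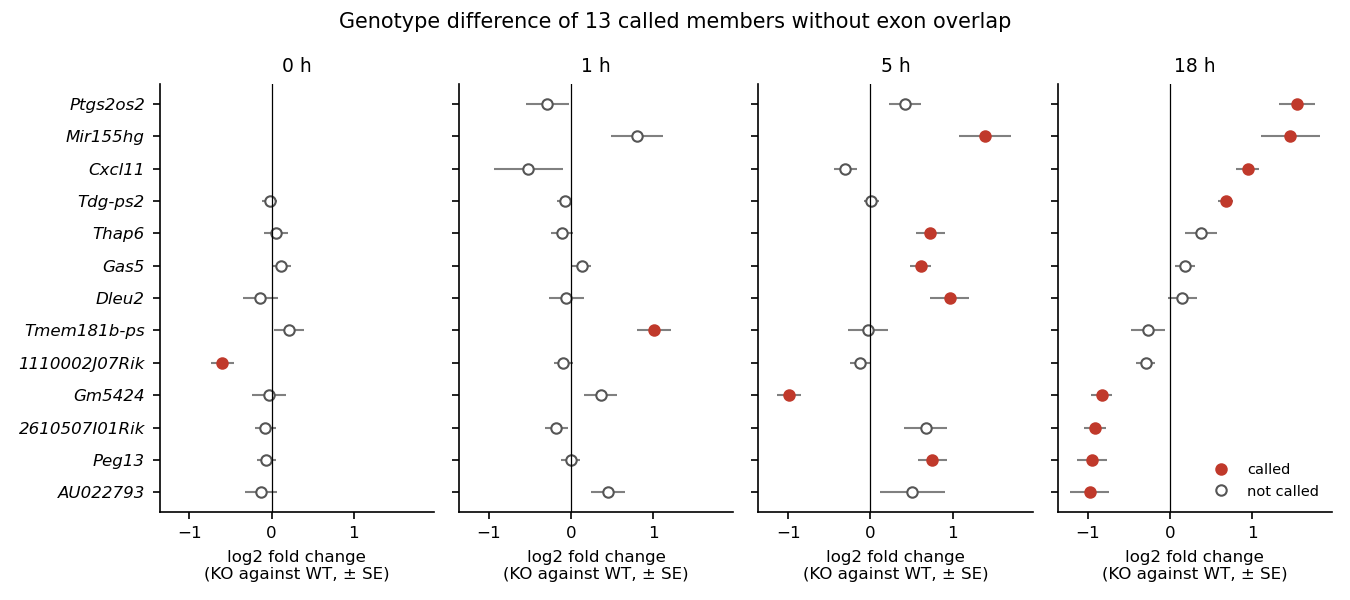
Log2 fold change of BMDM-Nur77-KO against BMDM-WT at 0, 1, 5 and 18 h for the 13 called members without exon overlap; bars are ± SE, red points are called and open points are not. Points with at most 3 mean tags per library in both groups are left out. At 18 h Ptgs2os2, Mir155hg, Cxcl11 and Tdg-ps2 lie right of 0 and Gm5424, 2610507I01Rik, Peg13 and AU022793 left of it.

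At 18 h Ptgs2os2, Mir155hg and Cxcl11 were higher in the knockout. The 6 dendritic cell markers summed to 19.0 to 24.0 CPM there against 6.71 to 8.25 CPM. Of these, 3 were tested (Xcr1, Ccr7 and Clec9a), and all 3 were called higher at 18 h, while Ccr7 was called lower at 5 h. The 7 macrophage markers summed to 10845 to 12309 CPM against 13770 to 14355 CPM. Of Itgam, Csf1r and Mertk, the macrophage markers called, 1 was higher and 2 were lower. The part of both marker sets in the member differences was not tested. Ptgs2os2 held 8.58, 8.18, 12.9 and 15.5 CPM in BMDM-Nur77-KO against 3.47, 3.71, 5.38 and 2.93 CPM in BMDM-WT, without overlap, a log2 fold change of 1.55 ± 0.22 (SE; edgeR adjusted p = 2.9e-06). At 5 h the groups overlapped, at 21.0, 17.1, 10.7 and 14.5 and 11.4, 10.5, 10.8 and 14.6 CPM. Ptgs2 was at 771 ± 173 against 99.5 ± 20.9 CPM at 18 h (log2 fold change 2.95 ± 0.18 SE, edgeR adjusted p = 1.8e-13). Mir155hg held 20.1, 15.5, 24.9 and 35.4 CPM against 10.0, 7.60, 7.98 and 9.12 CPM at 18 h (log2 fold change 1.47 ± 0.36 SE, edgeR adjusted p = 0.0027), again without overlap. At 5 h it held 185, 106, 40.6 and 77.0 CPM against 34.1, 27.1, 24.3 and 69.8 CPM; the log2 fold change was 1.40 ± 0.32 (SE; edgeR adjusted p = 0.0023), the groups overlapped, and fitting the compared libraries alone gave an edgeR adjusted p of 0.128. At 1 h the groups did not overlap either, at 36.3, 48.2, 57.8 and 52.3 CPM against 27.6, 34.6, 22.4 and 27.3 CPM, but the difference of 0.80 ± 0.32 (SE; edgeR adjusted p = 0.156) passed no test.

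Cxcl11 held 154, 123, 152 and 180.4 CPM in the knockout at 18 h against 72.1, 93.0, 83.2 and 67.7 CPM (log2 fold change 0.95 ± 0.14 SE, edgeR adjusted p = 8.6e-06), while at 5 h it was at 102 ± 16.6 against 127 ± 5.64 CPM and not called. AW112010 was at 1547, 1381, 1325 and 1617 CPM against 1048, 1161, 1169 and 1017 CPM at 18 h. The groups did not overlap, but the log2 difference of 0.42 ± 0.16 (SE; edgeR adjusted p = 0.061) was not called. Mx1 was at 2373, 2509, 2300.4 and 2311 CPM against 1819, 1763, 1547 and 1925 CPM, a difference of 0.43 ± 0.13 (SE; edgeR adjusted p = 0.018) inside the limit. Tdg-ps2 (chr15:82516311-82519278, plus strand), a pseudogene of thymine DNA glycosylase, held 36.1, 38.7, 31.2 and 36.7 CPM against 24.2, 21.5, 22.9 and 20.3 CPM at 18 h (log2 fold change 0.68 ± 0.09 SE, edgeR adjusted p = 1.3e-06), and at 5 h it was at 49.8 ± 4.84 and 49.5 ± 1.63 CPM and not called.

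Other members without overlap were lower in the knockout. Gm5424 held 10.4, 13.5, 18.4 and 19.4 CPM against 30.7, 27.7, 34.6 and 30.1 CPM at 5 h and 67.9, 65.8, 62.4 and 55.3 CPM against 106, 119, 105 and 116 CPM at 18 h, without overlap at either time, and the log2 fold changes were -0.99 ± 0.14 (SE; edgeR adjusted p = 1.1e-05) and -0.83 ± 0.13 (SE; edgeR adjusted p = 1.1e-05). 2610507I01Rik held 6.88, 5.16, 5.10 and 7.34 CPM against 13.3, 10.5, 10.9 and 11.2 CPM at 18 h (log2 fold change -0.91 ± 0.14 SE, edgeR adjusted p = 6.3e-06) and AU022793 3.31, 4.62, 2.73 and 4.41 CPM against 10.2, 7.03, 5.73 and 6.54 CPM (log2 fold change -0.98 ± 0.24 SE, edgeR adjusted p = 0.0027). Peg13 changed sides. At 5 h the knockout held 5.01, 4.78, 4.31 and 4.70 CPM against 2.50, 2.93, 3.77 and 1.89 CPM (log2 fold change 0.75 ± 0.18 SE, edgeR adjusted p = 0.0032), and at 18 h 1.43, 2.13, 2.38 and 1.39 CPM against 3.65, 3.80, 3.30 and 3.62 CPM (log2 fold change -0.95 ± 0.18 SE, edgeR adjusted p = 0.00022). Neither pair of groups overlapped, and the 5 h value fitted on the compared libraries alone had an edgeR adjusted p of 0.0887. At 0 h 1110002J07Rik held 3.09, 2.90, 3.21 and 3.65 CPM against 4.87, 5.07, 4.30 and 5.21 CPM (log2 fold change -0.60 ± 0.14 SE, edgeR adjusted p = 0.0037), a call at the limit that ended without BMDM-Nur77-KO 0 h replicate 2, BMDM-WT 0 h replicate 2 or BMDM-WT 0 h replicate 4. At 1 h Tmem181b-ps held 7.00, 8.33, 10.0 and 9.29 CPM against 4.11, 5.06, 3.88 and 4.16 CPM (log2 fold change 1.01 ± 0.21 SE, edgeR adjusted p = 0.0014).

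At 5 h some calls rested on BMDM-Nur77-KO 5 h replicate 1. Gas5 held 31.6, 21.0, 15.8 and 19.6 CPM in the knockout, where replicate 1 was highest, against 13.4, 14.7, 14.0 and 15.3 CPM. Its difference of 0.61 became 0.39 without that library. Thap6 held 19.5, 12.1, 10.6 and 10.8 CPM against 6.94, 9.29, 7.76 and 7.79 CPM, and 0.73 became 0.49. Without it the calls of 4930473A02Rik, Gm10336, Scpep1os, E230013L22Rik and 4930549G23Rik ended too. Those of Gm10336, E230013L22Rik, 4930549G23Rik and Scpep1os ended also without any of 1, 2, 3 and 4 other libraries, and that of Scpep1os under the replicate block. Dleu2 held 9.47, 5.95, 3.83 and 4.70 CPM against 3.87, 2.69, 3.55 and 2.01 CPM (log2 fold change 0.96 ± 0.23 SE, edgeR adjusted p = 0.0041) and Chaserr, a lncRNA that restrains its neighbour Chd2, 35.1, 25.8, 16.7 and 23.9 CPM against 14.1, 13.1, 13.7 and 15.1 CPM (log2 fold change 0.85 ± 0.18 SE, edgeR adjusted p = 0.0011). Both kept their calls without it, with replicate 1 again the highest, but that of Dleu2 ended in a fit of the compared libraries alone. Chd2, which shares 2628 exon bases with Chaserr on the same strand, was also higher, by 0.69.

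G530011O06Rik (NR_029457; chrX:169975043-169978917, minus strand) was the only member called between genotypes at all 4 times. In BMDM-WT it held 9.58, 6.10, 6.03 and 5.79 CPM at 0 h and 73.2, 67.0, 66.2 and 76.8 CPM at 5 h, and in BMDM-Nur77-KO 16.3, 14.4, 19.7 and 18.1 CPM and 245, 229.8, 175 and 189 CPM. The groups were apart at each time, with log2 differences of 1.32 ± 0.14 (SE; edgeR adjusted p = 5.3e-08) at 0 h, 1.49 at 1 h, 1.57 at 5 h and 1.87 ± 0.12 (SE; edgeR adjusted p = 6.3e-13) at 18 h. LPS raised it in BMDM-WT by 3.37 at 5 h and 2.75 at 18 h. It lies inside Mid1, an X-linked ubiquitin ligase gene, and shares 951 of 2380 exon bases with it on the opposite strand. Mid1 was higher in the knockout too, by 1.13, 1.47, 1.17 and 1.96, but at 17.5 ± 1.98 CPM in BMDM-WT at 5 h it was the lower of the pair, and G530011O06Rik held 19.6 times the tags that Mid1 would give.

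Several overlapping members called between genotypes lay beside a neighbour called in the same direction. At 18 h Gm14023 was higher by 1.93 ± 0.11 (SE; edgeR adjusted p = 2.9e-14) and Il1a by 2.21. 4933416M07Rik was higher by 1.33 and Rab11fip1 by 1.29, 6530402F18Rik by 1.14 and its same-strand neighbour Ntng2 by 1.32, and the log2 fold change of Gm15441 was -1.03 and that of Txnip -0.90. Mir147 held 8.27, 12.9, 27.3 and 30.8 CPM against 33.4, 38.8, 37.9 and 34.7 CPM at 5 h and 33.3, 28.8, 30.0 and 19.7 CPM against 16.6, 19.2, 13.5 and 15.8 CPM at 18 h, with log2 fold changes of -0.87 and then 0.78. The first call ended without BMDM-Nur77-KO 5 h replicate 2 and the second without any of 4 libraries, and AA467197 differed by -0.48 and 1.00. At 1 h A630072M18Rik held 24.1, 28.6, 30.4 and 31.2 CPM against 16.9, 18.0, 19.5 and 18.9 CPM (log2 fold change 0.64 ± 0.13 SE, edgeR adjusted p = 0.0009), and Rsbn1l differed by 0.02. At 0 h the pseudogene Rplp2-ps1, which lies opposite to an exon of Wdr89, held 8.18, 8.51, 7.94 and 11.6 CPM against 13.8, 14.9, 15.1 and 14.8 CPM (log2 fold change -0.69 ± 0.18 SE, edgeR adjusted p = 0.0077).

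The third question was whether the LPS response itself differed between genotypes, tested as the interaction of genotype and time with an adjusted p under 0.05. At 1 h 0 members passed in edgeR (0.0707% of all genes tested), 18 had an unadjusted p under 0.05, and DESeq2 called 0, with no adjusted p for 101 members. At 5 h 3 passed (3.06% of all genes) and none of these held without each library in turn. At 18 h 15 passed (9.39% of all genes), 11 with a positive and 4 with a negative interaction, and 9 of the 15 held without each library. Those that did not were Gm5424, Bambi-ps1, Gm16712, Gm11696, 1700034P13Rik and Rab10os. Without the 3 libraries that stand apart the counts were 8, 5 and 28. Among the 15 the largest were Gm14023 (interaction 1.91 ± 0.34 SE, edgeR adjusted p = 0.00023), 4933416M07Rik (interaction 1.49 ± 0.23 SE, edgeR adjusted p = 3.9e-05) and 6530402F18Rik (interaction 1.38 ± 0.28 SE, edgeR adjusted p = 0.00099), each beside a neighbour that also passed, with the values Il1a (1.54), Rab11fip1 (1.30) and Ntng2 (1.51). Without exon overlap, Mx1 had the larger rise in the knockout (interaction 0.93 ± 0.20 SE, edgeR adjusted p = 0.0016), starting from 14.0, 17.0, 15.4 and 19.5 CPM at 0 h against 27.9, 23.3, 24.9 and 17.2 CPM. Tdg-ps2 had an interaction of 0.71 ± 0.13 (SE; edgeR adjusted p = 0.00038). Peg13 (interaction -0.89 ± 0.22 SE, edgeR adjusted p = 0.0065), 2610507I01Rik (interaction -0.83 ± 0.19 SE, edgeR adjusted p = 0.0027) and Gm5424 (interaction -0.80 ± 0.24 SE, edgeR adjusted p = 0.033) had negative interactions, the last of which ended without any of 8 libraries, with an edgeR adjusted p of up to 0.114. At 5 h the 3 were Gm12992 (0.62), Gm5424 (-0.96) and Peg13 (0.82).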

How the data were processed

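RNA of BMDM-WT and BMDM-Nur77-KO was sequenced from strand-specific poly(A) libraries. The authors aligned paired reads to mm10 with HISAT2 2.1.0 and deposited estimated counts per RefSeq transcript from HOMER, in which each mate adds 0.5, so that 28.6% of the values are not whole. Alignments were filtered on mapping quality before the counting, which used HOMER's default settings. The strand setting was not named, and the RefSeq version is not given in the sources used here. Totals ranged from 8742360.5 to 15780965 tags, and counting error is largest for the members with fewest tags. The table had 0 columns of other series.

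Transcripts were named through RefSeq of GRCm38.p6 or GENCODE M21, and 93 of 42361 were not named (0.233 to 1.37% of tags). The row with the highest mean count stood for each gene, and counts were rounded to whole numbers for the tests. All 8 group means were fitted over 32 libraries with edgeR 4.0.16 (quasi-likelihood test, TMM scaling, R 4.3.3) on 11322 genes whose mean RPKM exceeded 1 in any group, taking 1000 bases where no length was known, and p-values were adjusted after Benjamini and Hochberg. Membership used CPM of library totals, while printed levels are CPM of TMM-scaled totals. Exon overlap was taken from GRCm38.p6 models, without overlaps with genes of small RNAs or unconfirmed genes. DESeq2 1.42.0, its size factors, no filter, the compared libraries alone, a replicate block, summed rows, the other fold limit, members without overlap and leaving out each library were the alternatives, and library totals without TMM and leaving out 3 libraries were added after seeing the data.

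The members and gene lists were chosen with earlier results of these data known. Named members are the 10 highest, the 5 called members with the largest change each way in a contrast whose groups do not overlap, the 3 largest interactions per time, the 3 on each side of the CPM limit and those on the lncRNA and host lists. Dleu2, Tdg-ps2, Rpl14-ps1, Atrip-trex1, Rab10os, AI504432, 4933412E12Rik, Bambi-ps1, Gm16712, Gm36117, H2-Q5, H2-K2, Gm10336, 4930549G23Rik, Gm18852, Gm18853, Mir7676-1 and Mir7676-2 fall outside this rule and were chosen after their values were seen. Gm11696 and 1700034P13Rik are named only among the interactions, also after their values were seen.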

Additional observations from a re-analysis of the deposited data

Results flagged for a closer look

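A library far from the other 3 of its group, by Dixon's 95% criterion, was found in 38 of 583 groups of the 74 named members, and chance gives about 1 in 20. The values are CPM, each with the nearest of the other libraries. Among the untreated BMDM-WT libraries replicate 1 was far above the others for Pisd-ps3 (134 against 101 CPM), G530011O06Rik (9.58 against 6.11 CPM) and Pisd-ps1 (17.2 against 12.2 CPM), and replicate 2 was far above the others for Gm12992 (34.9 against 30.1 CPM). Replicate 3 was far above the others for Zfas1 (13.4 against 11.1 CPM). At 1 h of LPS in BMDM-WT replicate 2 was far above the others for Cxcl11 (1.41 against 0.534 CPM) and 2610507I01Rik (8.01 against 7.39 CPM), and replicate 4 was far above the others for Norad (186 against 172 CPM) and Gm12992 (32.2 against 28.2 CPM). Replicate 4 was far below the others for Gm12191 (124 against 151 CPM). At 5 h in BMDM-WT replicate 2 was far above the others for Mir12188 (6.11 against 5.54 CPM), and replicate 4 was far above the others for Tdg-ps2 (51.9 against 48.9 CPM) and AI504432 (59.2 against 41.9 CPM). Replicate 4 was far below the others for Atp6v0c-ps2 (167 against 194 CPM). At 18 h in BMDM-WT replicate 3 was far above the others for Norad (254 against 217 CPM) and Gm10052 (72.8 against 67.8 CPM), and replicate 3 was far below the others for Atrip-trex1 (192 against 228 CPM), Scpep1os (12.9 against 17.9 CPM) and 2410006H16Rik (3.99 against 6.12 CPM). Among the untreated BMDM-Nur77-KO libraries replicate 1 was far below the others for AU022793 (7.64 against 13.0 CPM), and replicate 3 was far above the others for Gm5643 (212 against 186 CPM). Replicate 4 was far above the others for Rplp2-ps1 (11.6 against 8.51 CPM). Replicate 4 was far below the others for Tug1 (58.5 against 84.0 CPM). After 1 h in BMDM-Nur77-KO replicate 1 was far below the others for Gm16675 (1.36 against 2.15 CPM), and replicate 4 was far above the others for 4933416M07Rik (9.14 against 7.40 CPM) and Ptgs2os2 (2.40 against 2.15 CPM). After 5 h in BMDM-Nur77-KO replicate 1 was far above the others for Malat1 (956 against 417 CPM), Thap6 (19.5 against 12.1 CPM), Rab10os (12.8 against 8.03 CPM) and Gm16675 (9.47 against 5.93 CPM), and replicate 2 was far above the others for Gm12191 (166 against 132 CPM). Replicate 4 was far above the others for Zfas1 (23.5 against 17.3 CPM). After 18 h in BMDM-Nur77-KO replicate 2 was far below the others for Rab10os (9.07 against 10.8 CPM), and replicate 4 was far above the others for AI504432 (5.39 against 3.50 CPM). Replicate 4 was far below the others for Atp6v0c-ps2 (111 against 239.8 CPM), Mir7676-1 (6.37 against 18.6 CPM), Mir7676-2 (6.37 against 18.6 CPM) and Zfas1 (21.4 against 31.1 CPM).

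The response to LPS differed between BMDM-Nur77-KO and BMDM-WT, by the interaction term of the edgeR fit, for 18 results. At 5 h these were Gm12992 (0.62), Gm5424 (-0.96) and Peg13 (0.82), as differences of log2 fold changes with edgeR adjusted p from 0.027 to 0.044. At 18 h they were Mx1 (0.93), Atrip-trex1 (0.78), Gm15441 (-0.83), Gm14023 (1.91), Tdg-ps2 (0.71), Gm5424 (-0.80), Bambi-ps1 (0.56), Gm16712 (0.65), Peg13 (-0.89), 4933416M07Rik (1.49), Gm11696 (0.66), 1700034P13Rik (0.64), 2610507I01Rik (-0.83), Rab10os (0.64) and 6530402F18Rik (1.38), with edgeR adjusted p from 3.9e-05 to 0.045. Positive values mean a more positive change in BMDM-Nur77-KO. Of the 15 at 18 h, 7 were members without exon overlap. No result at 5 h kept its call without each library in turn, and 9 of the 15 at 18 h did.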

How the results depend on the processing

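Counts of members are given as higher/lower. Under the summed rows 105 of the then 108 members were shared with the 155, and under the unfiltered fit every count stayed within 1.5 times. With the limits of 1 and 0.58 on the log2 fold change exchanged, 13 and 34 members were lower at 1 and 18 h of LPS, and the genotype counts were 1/0, 2/0 and 6/1 at 0, 5 and 18 h. Among the 69 members without exon overlap the LPS counts were 9 higher at 1 h, 17/17 at 5 h and 19 higher at 18 h, the genotype counts 0/1 at 0 h, 1 higher at 1 h, 5/1 at 5 h and, at 18 h, 4 higher, and 7 interactions were called at 18 h, since fewer members were counted. With DESeq2's size factors 1 member was lower at 0 h in BMDM-Nur77-KO. In fits of the compared libraries alone, 5 members were higher in BMDM-Nur77-KO at 1 h, the 5 h count was 2/1, and interactions numbered 5 at 1 h and 0 at 5 h; the cause was not tested. DESeq2 gave 15/6 at 5 h, 20 interactions at 18 h, 4 at 5 h and 0 at 1 h, where 101 members had no adjusted p. In the edgeR fit 18 members had an unadjusted interaction p under 0.05 at 1 h. Without each library in turn the counts lower in BMDM-Nur77-KO ranged from 1 to 4 at 0 h, 2 to 14 at 5 h and 5 to 8 at 18 h, that of higher members at 5 h from 7 to 21, and interactions from 0 to 8 at 5 h and 10 to 22 at 18 h. The 5 h genotype count was 7/2 without BMDM-Nur77-KO 5 h replicate 1, 21/14 without replicate 3 and 17/14 without replicate 4, and 2 were lower without BMDM-WT 5 h replicate 1. At 0 h 1 was lower without BMDM-Nur77-KO or BMDM-WT 0 h replicate 2 and 4 without BMDM-Nur77-KO 0 h replicate 4, and at 18 h 8 were lower without BMDM-Nur77-KO 18 h replicate 4. Calls kept without each library were 16 of 19, 67 of 73 and 49 of 54 for LPS, and 2 of 3, 3 of 3, 6 of 16 and 14 of 15 for genotype. Of 2 alternatives chosen after seeing the data, library totals without TMM gave 7, 50 and 29 lower members at the 3 LPS times and 8 at 18 h between genotypes, with the median of all genes shifted by -0.15, -0.63, -0.37 and -0.10 on the log2 scale. Leaving out the 3 libraries that stand apart gave 4, 2 and 8 lower members in BMDM-Nur77-KO at 0, 5 and 18 h and 8, 5 and 28 interactions at 1, 5 and 18 h. Deviations of same-numbered libraries correlated between -0.369 and 0.257, over 0.1 in 8 of 28 pairs. Differently numbered libraries were not compared, so these values cannot decide whether the numbers pair the libraries. With a replicate block 3 members were lower in BMDM-Nur77-KO at 5 h, 11 higher at 18 h and 4 interactions were called at 5 h, while the other counts were equal. Over all named results no direction reversed.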
